A study of Pinus pinaster with 6 samples.

Results

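Sucrose synthase and phosphofructokinase stand at the start of sugar use in roots. They are represented here by 3 transcripts of the maritime pine (Pinus pinaster) root transcriptome, pp_144835 and pp_144843, both named sucrose synthase, and pp_211717, named phosphofructokinase, out of 46658 transcripts in the table. The 3 were picked by ID with their response to ammonium in these same libraries already known, and the sucrose synthase pair was picked as an abundant and a rare form. Their levels and changes are therefore a description, without a test. Tests were kept for the other transcripts of the same enzymes and of neighbouring steps.

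The RNA came from whole roots of seedlings aged 1 month, grown in vermiculite from seeds of a single Spanish provenance and given distilled water until the treatment. The ammonium group received 80 mL of 3 mM NH4Cl and the control group 80 mL of water, and roots were taken 24 h later. There were 3 libraries of each, N1, N2 and N3 from ammonium-treated seedlings and C1, C2 and C3 from water-irrigated seedlings. The labels describe independent repeats of the experiment but do not say how many seedlings a library pooled, and chloride was given together with ammonium. Direct RNA sequencing (DRS) passes the native poly(A) RNA strand through a nanopore. A cDNA strand was made on it during library preparation, but the RNA strand is the one read, so a read stands for 1 RNA molecule.

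The ammonium libraries held 2947096 to 5416076 reads assigned to transcripts, against 1270378 to 4801448 in the water libraries, where C1 was the shallowest. All values are CPM, counts of reads scaled to library size, a unit which is not divided by transcript length. C1 stood apart from the other libraries on the first principal component (36.5% of the variance) and N1 on the second (22.3%), so results were also obtained without both. Root markers were present, 5 of 5 listed, with a summed level of 1073 to 1098 CPM in ammonium libraries and 1002 to 1071 CPM in water libraries. Of the 11 photosynthesis markers listed, 4 were measured, with a summed level of 381 to 509 CPM under ammonium and 481 to 625 CPM under water. Their part in the results below was not tested. In whole roots, fewer cells of a type and less RNA per cell cannot be told apart.

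Sucrose arrives in roots through the phloem. Sucrose synthase cleaves it reversibly, with UDP, into UDP-glucose and fructose, and it is the alternative to invertase, which hydrolyses sucrose irreversibly into glucose and fructose. UDP-glucose feeds cellulose and callose synthesis or, through UDP-glucose pyrophosphorylase, the hexose phosphate pool. Phosphofructokinase phosphorylates fructose 6-phosphate to fructose bisphosphate. The ATP-dependent enzyme does this irreversibly and is a classical control point of glycolysis, whereas plants also have a pyrophosphate-dependent enzyme that works in both directions. Carbon that leaves glycolysis as organic acids supplies the skeletons on which roots assimilate ammonium.

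For pp_211717 the study designed a pair of primers for quantitative PCR, of 21 and 20 bases. They are shown as the sequences with which the study addressed this transcript, and their match to the other phosphofructokinase forms was not tested. They are written 5′ to 3′, as listed for the ATP-dependent enzyme, with no base set in capitals.
qpp_Pfk-F: aaatggtacaggtggaggaca
qpp_Pfk-R: ggcttcccacgaacataaaa

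All 3 transcripts were lower in every ammonium library than in any water library. The mean level under ammonium was 0.670 times the water level for the abundant sucrose synthase form pp_144835, 0.423 times for the rare form pp_144843 and 0.430 times for the phosphofructokinase pp_211717. Separation of this kind in the lower direction was found for 6.94% of all transcripts in the table, and nothing is read from it for the 3, since it is how they were chosen. The median log2 fold change of all transcripts was 0.0043.

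The abundant sucrose synthase form, pp_144835, best matches sucrose synthase 3 of Arabidopsis. It had 89.6 CPM in N1, 61.4 CPM in N2 and 75.2 CPM in N3, against 123 CPM in C1, 96.6 CPM in C2 and 119 CPM in C3. N1 was the highest ammonium library and C2 the lowest water library, and these were the closest values of the 2 groups. The means were 75.4 ± 14.1 CPM under ammonium and 113 ± 14.1 CPM under water (SD, n = 3 each). The log2 fold change was -0.58 ± 0.14 (SE, on the scale of log2(CPM + 1)). These values rested on 986 reads in the ammonium libraries and 1169 in the water libraries. Its mean over the 6 libraries, 94.0 CPM, was above that of 96.3% of the transcripts in the table.

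Replicate libraries differed in pp_144835 by more than counting alone would give. The SD between ammonium libraries was 3.36 times the SD expected from the number of reads, and that between water libraries 2.14 times. In N1 276 reads gave a 95% counting interval of 79.4 to 101 CPM, and in C2 472 reads gave 88.0 to 106 CPM. The intervals of these closest libraries thus overlapped, although the values did not. Such intervals are exact Poisson intervals and cover counting error only.

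The rare form, pp_144843, is named sucrose synthase without a match to Arabidopsis. It had 4.55 CPM in N1, 3.84 CPM in N2 and 3.39 CPM in N3, against 9.21 CPM in C1, 7.36 CPM in C2 and 11.3 CPM in C3. The 3 ammonium libraries lay close together, and the lowest water library, C2, was above the highest of them. The means were 3.92 ± 0.58 CPM under ammonium and 9.28 ± 1.95 CPM under water (SD, n = 3 each), and the log2 fold change was -1.05 ± 0.23 (SE). The pseudocount of 1 CPM shrinks the change of a low transcript, and on the recovered reads edgeR gave -1.27. There were 14, 18 and 19 reads in N1, N2 and N3, and 12, 36 and 51 reads in C1, C2 and C3. The 12 reads of C1 allow 4.76 to 16.1 CPM, an interval that reaches into those of all 3 ammonium libraries. The interval of C2, 5.16 to 10.2 CPM, reaches into them too. The spread of this form was that of counting, with an SD 0.612 times the counting SD under ammonium and 1.02 times under water. Its mean over the libraries, 6.60 CPM, was above that of 48.5% of all transcripts, so the form called rare here was of ordinary abundance for the table.

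The phosphofructokinase transcript pp_211717 best matches phosphofructokinase 2 of Arabidopsis, an ATP-dependent enzyme. It had 1.95 CPM in N1, 3.20 CPM in N2 and 4.10 CPM in N3, against 6.14 CPM in C1, 6.96 CPM in C2 and 8.39 CPM in C3. No ammonium library reached the level of a water library, and N1 was the lowest of all. The means were 3.08 ± 1.08 CPM under ammonium and 7.16 ± 1.14 CPM under water (SD, n = 3 each), with a log2 fold change of -1.03 ± 0.26 (SE) and of -1.18 from edgeR on the recovered reads. It was the least sampled of the 3, with 6, 15 and 23 reads in N1, N2 and N3 and 8, 34 and 38 reads in C1, C2 and C3. The 8 reads of C1 correspond to 2.65 to 12.1 CPM, which covers the values of N2 and N3. The intervals of C2 (4.82 to 9.72 CPM) and C3 (5.94 to 11.5 CPM) also met that of N3 (2.60 to 6.15 CPM). In N1, 3 reads would be 0.974 CPM and in C1 2.30 CPM, so the level in these libraries was only a few reads above that floor.

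**Figure D1:**
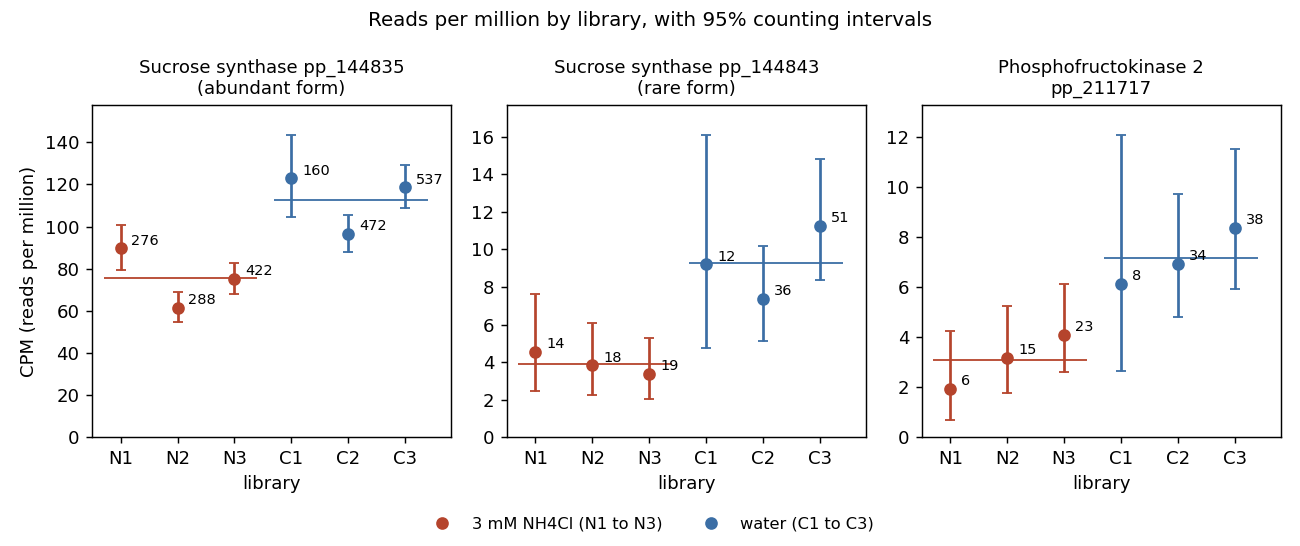
CPM (library-scaled reads) of the 3 transcripts in the ammonium libraries N1 to N3 and the water libraries C1 to C3, with exact 95% Poisson intervals, horizontal lines at the group means and the number of reads beside each point. In each panel the 3 ammonium points lie below the 3 water points, but some intervals of the 2 groups overlap. For the abundant sucrose synthase form this holds for C2 with N1. For the rare form the intervals of C1 (12 reads) and C2 overlap those of ammonium libraries. For phosphofructokinase those of C1 (8 reads), C2 and C3 do.

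Given once for the record, limma called 0 of the 3 at an adjusted p under 0.05 (Benjamini-Hochberg over all transcripts), where it called 0.0386% of all transcripts, and 3 of 3 had an unadjusted p under 0.05, as did 4.58% of all transcripts in the lower direction. By the exact test of edgeR, run on recovered reads, 2 of 3 were called, pp_144843 and pp_211717 (0.81% of all transcripts). Its quasi-likelihood test called 0 of 3 (0.244%). DESeq2 called 0 of the 2 to which it gave an adjusted p (0.31%), and pp_211717 got none. Without C1 and N1, limma called pp_144835 and pp_144843 (0.754% of all transcripts). These calls are of the contrast that chose the transcripts, and nothing is read from them. The log2 fold changes without C1 and N1 were -0.65 for pp_144835, -1.14 for pp_144843 and -0.90 for pp_211717.

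The abundant and the rare sucrose synthase form differed in level by more than 10 times in every library. The abundant form had 19.7, 16.0 and 22.2 reads for each read of the rare form in N1, N2 and N3, against 13.3, 13.1 and 10.5 in C1, C2 and C3. The fold between the forms was wider in each ammonium library than in any water library, 19.3 ± 3.13 under ammonium and 12.3 ± 1.56 under water (SD, n = 3 each). Expressed as a share of the reads of both forms, the rare form took 4.83% in N1, 5.88% in N2 and 4.31% in N3, against 6.98% in C1, 7.09% in C2 and 8.67% in C3. The exact 95% binomial intervals were wide, 3.52% to 9.14% in N2 and 3.66% to 11.9% in C1, and those of N3 (2.61% to 6.65%) and C3 (6.53% to 11.2%) just met. The rare minus abundant difference of log2(CPM + 1) was -3.95 ± 0.23 under ammonium and -3.48 ± 0.17 under water (SD, n = 3 each), a shift of -0.47. With a pseudocount of 4 CPM the shift was -0.17, so its size depended on how low values are handled. These levels are in CPM, not per length.

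The transcriptome holds further sucrose synthase transcripts. Of 20 listed from names in the study's tables, after the exclusion given with the processing below, 15 were in the table. IDs pp_144835 to pp_144843 form a run of 8 measured transcripts, of which 6 carry the name. Near-identical forms may share reads, which was not tested, and pp_144835, pp_144839 and pp_147674 carry the same unigene, so they may not be separate measurements. pp_144839, with 107, 71.0 and 86.3 CPM in N1, N2 and N3 against 146, 111 and 133 CPM in C1, C2 and C3, kept to 1.12 to 1.20 times the reads of pp_144835 in every library.

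Of the 13 sucrose synthase forms other than the pair, 10 had a log2 fold change below 0 and 3 above it. Limma called none of the 13, while 5 lower and 3 higher had an unadjusted p under 0.05, as did 4.58% and 4.1% of all transcripts. edgeR's exact test called pp_144836 alone (lower, adjusted p = 0.0437), and neither the quasi-likelihood test nor DESeq2 called any of them. The median log2 fold change of the 13 was -0.34, beside 0.0043 over all transcripts. A selection bears on these counts. For 5 of the 13 the name was found only in a table that the study had sorted by the response of these libraries. They were pp_86197, pp_86198, pp_138487, pp_144836 and pp_211898. Of those 5, 4 had an unadjusted p under 0.05 in the lower direction, pp_211898 being the exception. Among the 8 named elsewhere, 1 was lower and 2 were higher at an unadjusted p under 0.05, and the median was -0.29. The lower one was pp_144839, which carries the unigene of the chosen pp_144835 and may not be a separate measurement. Of the higher ones, pp_211901 carries the unigene of pp_211898.

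In the run of pp_144835 all 6 forms had lower means under ammonium, with log2 fold changes from -1.05 to -0.21. The 6 include pp_144835 and pp_144843, chosen with their response known, and pp_144839, which carries the unigene of pp_144835. The count and the summed level of the run are therefore partly set by that choice. Their summed level was 331, 225 and 256 CPM in N1, N2 and N3, against 413, 342 and 384 CPM in C1, C2 and C3. The abundant form held 27.9% of this sum under ammonium and 29.7% under water, and the rare form 1.45% and 2.44%. pp_144836 was the steadiest of them, with 27.0, 29.2 and 29.4 CPM in N1, N2 and N3 against 42.2, 41.1 and 41.3 CPM in C1, C2 and C3 (log2 fold change -0.53 ± 0.13, SE). The values of pp_144837 (-0.28 ± 0.24) and pp_144840 (-0.21 ± 0.15) overlapped between groups. The 3 forms with IDs pp_86194 to pp_86198 had log2 fold changes of -0.30 to -0.65 and a summed level of 36.7, 44.6 and 53.7 CPM in N1, N2 and N3, against 79.8, 64.0 and 56.5 CPM in C1, C2 and C3. Outside these runs, pp_138487 was at -0.65 ± 0.21 and pp_147674 at -0.44 ± 0.43, and pp_147674 had a single read in N2. The forms pp_144836, pp_86197, pp_86198 and pp_138487 were named only in the table sorted by response.

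Another run of sucrose synthase IDs had 3 of its 4 forms higher in mean level under ammonium. Separation of all 3 ammonium libraries above all 3 water libraries was found for 7.16% of all transcripts, and for pp_211898 and pp_211903 here. pp_211898 had 135, 113 and 118 CPM in N1, N2 and N3, against 99.0, 104 and 77.1 CPM in C1, C2 and C3 (log2 fold change 0.39 ± 0.13, SE, limma adjusted p = 0.402). This form was named only in the table sorted by response. pp_211903, which had the highest mean CPM of the sucrose synthase forms over the 6 libraries but not under water, where pp_144839 was higher, had 150, 139 and 142 CPM against 127, 123 and 108 CPM (0.27 ± 0.11, limma adjusted p = 0.506). pp_211901 (0.52 ± 0.21) had 30.2, 56.9 and 59.4 CPM in N1, N2 and N3, against 32.2, 38.0 and 27.4 CPM in C1, C2 and C3, so that N1 alone lay within the range of the water libraries. It carries the same unigene as pp_211898. Without C1 and N1 its log2 fold change was 0.83 and limma called it higher (adjusted p = 0.0179), and pp_144839 lower (-0.62, adjusted p = 0.0394). The fourth form of the run, pp_211899, had a log2 fold change of -0.34 ± 0.18. The 4 forms summed to 331, 323 and 338 CPM under ammonium and to 282, 282 and 233 CPM under water.

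Summed over all 15 forms, sucrose synthase had 655 ± 55.3 CPM under ammonium and 726 ± 54.0 CPM under water (SD, n = 3 each), a ratio of 0.903. N1 (709 CPM) was above C2 (699 CPM) and C3 (690 CPM), so the groups overlapped in the total, unlike in the 2 forms described first. The abundant form pp_144835 made up 11.5% of the total under ammonium and 15.5% under water, and the rare form 0.599% and 1.28%. Reads shared between forms may be counted more than once in these sums.

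**Figure D2:**
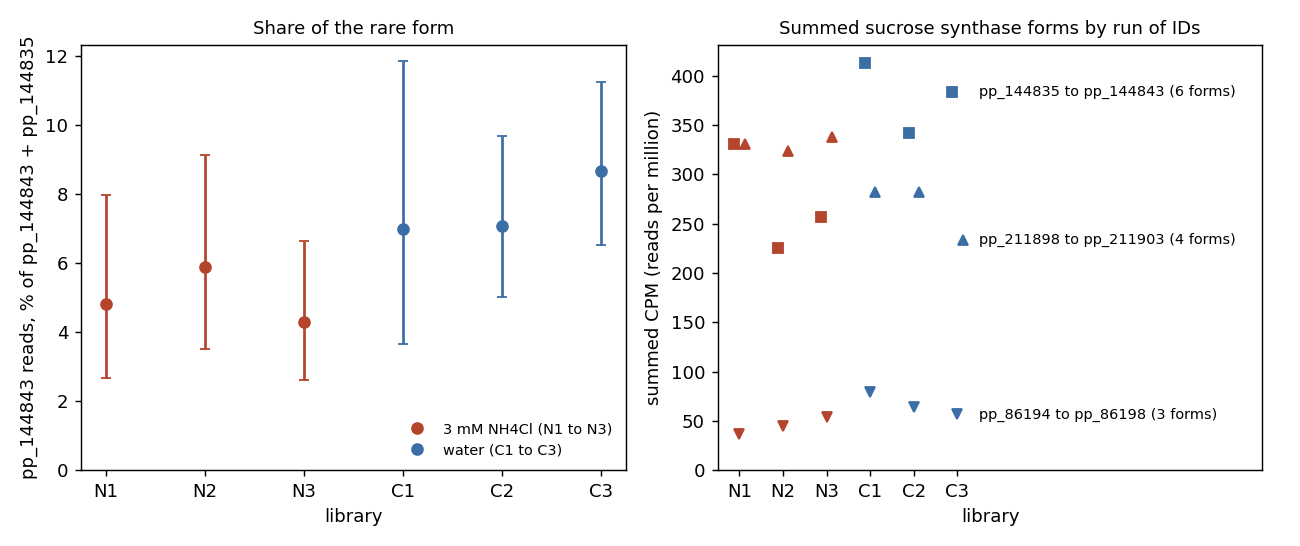
Left, reads of the rare form pp_144843 as a percent of those of both forms in each library, with exact 95% binomial intervals. Right, summed CPM of sucrose synthase forms in 3 runs of IDs, where the run of pp_144835 (squares) lies at 225 to 331 CPM under ammonium and 342 to 413 CPM under water, and the run of pp_211898 (upward triangles) at 323 to 338 CPM and 233 to 282 CPM. The sum of the run of pp_144835 includes both chosen forms, pp_144835 and pp_144843.

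For phosphofructokinase, 7 ATP-dependent transcripts were measured, and 4 of them match phosphofructokinase 2 of Arabidopsis. All 4, the chosen pp_211717 among them, had lower means under ammonium. pp_211717 was the smallest of them in level and had the most negative log2 fold change. Its neighbour by ID, pp_211715, had 14.6, 13.4 and 17.5 CPM in N1, N2 and N3, against 17.6, 15.1 and 26.5 CPM in C1, C2 and C3 (log2 fold change -0.33 ± 0.20, SE, limma adjusted p = 0.675). pp_144273 had 3.90, 4.90 and 3.57 CPM against 6.90, 7.57 and 7.07 CPM, without overlap (-0.68 ± 0.22, limma adjusted p = 0.400), and it was named only in the table sorted by response. pp_144272, which carries the same unigene as pp_144273, was at -0.15 ± 0.19, and its values, like those of pp_211715, overlapped between groups. The 4 together had 30.2, 36.5 and 38.7 CPM in N1, N2 and N3, against 43.0, 45.6 and 56.1 CPM in C1, C2 and C3, and pp_211717 was 8.78% of this sum under ammonium and 14.9% under water.

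The other 3 ATP-dependent transcripts, which match phosphofructokinases 3, 4 and 5 of Arabidopsis, had higher means under ammonium. pp_59849 (phosphofructokinase 5, a plastid enzyme) had 15.6, 15.1 and 15.7 CPM in N1, N2 and N3, against 9.21, 13.7 and 10.8 CPM in C1, C2 and C3 (log2 fold change 0.44 ± 0.18, SE, limma adjusted p = 0.511). pp_94589 (phosphofructokinase 4) was at 0.16 ± 0.18 and pp_94591 (phosphofructokinase 3) at 0.28 ± 0.25. All 7 summed to 68.1 ± 2.08 CPM under ammonium and 74.5 ± 8.53 CPM under water (SD, n = 3 each), with overlapping libraries, and pp_211717 held 4.53% and 9.61% of that total.

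The pyrophosphate-dependent enzyme was the more abundant kind in CPM, which is not scaled to length. Its 6 measured transcripts, of 8 listed, summed to 259 ± 21.5 CPM under ammonium and 240 ± 3.40 CPM under water (SD, n = 3 each). pp_196476 (0.09 ± 0.12), pp_246314 (0.14 ± 0.11), pp_196473 (0.20 ± 0.16) and pp_196477 (0.18 ± 0.18) had log2 fold changes above 0, and pp_196481 (-0.15 ± 0.25) and pp_246318 (-0.31 ± 0.31) below it. pp_196473, pp_196476, pp_196477 and pp_196481 carry the same unigene, and pp_246314 and pp_246318 share another. They may not be separate measurements, and shared reads may be counted more than once in the sum. Of the 12 ATP- and pyrophosphate-dependent transcripts other than pp_211717, limma called 0, with 1 higher (pp_59849) and 1 lower (pp_144273) at an unadjusted p under 0.05. The exact test, the quasi-likelihood test and DESeq2 also called 0. Their median log2 fold change was 0.12. It was 0.0023 for the ATP-dependent ones among them and 0.12 for the pyrophosphate-dependent ones. The 4 forms that match phosphofructokinase 2, with pp_211717 among them, were all below 0.

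**Figure D3:**
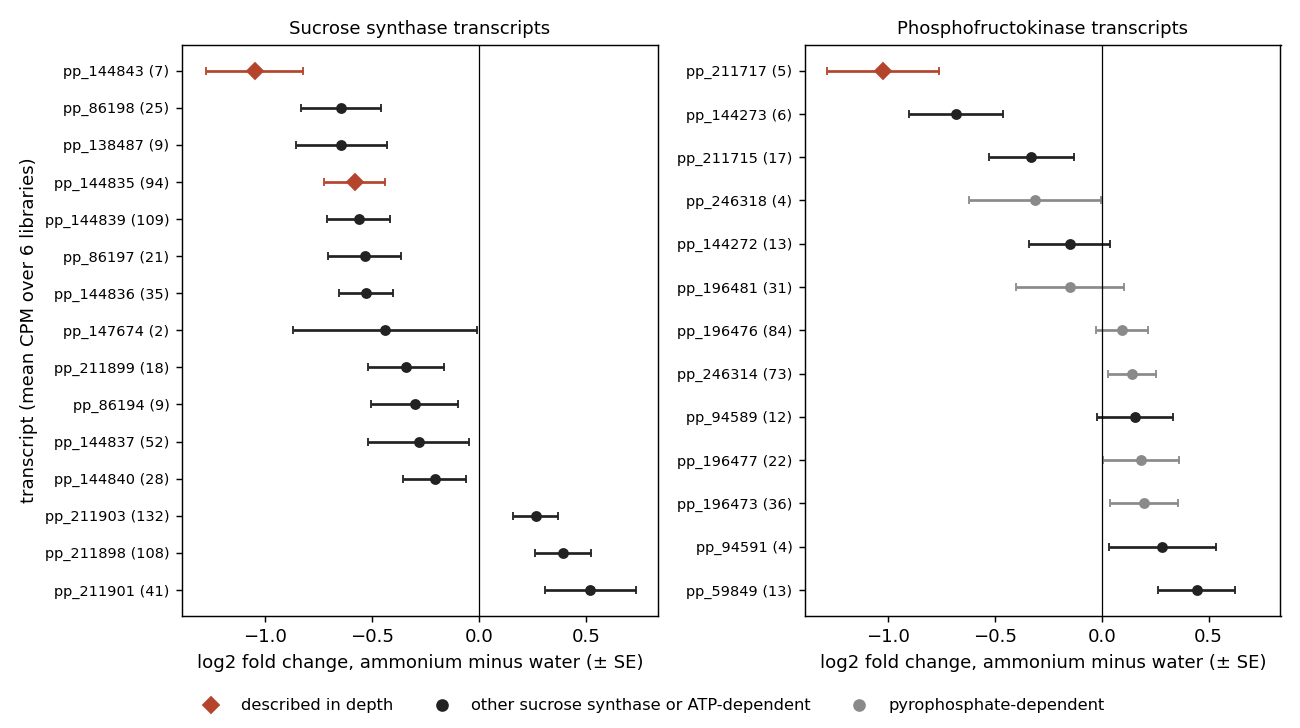
Log2 fold change, ammonium minus water, with its SE (n = 3 libraries per group) for the 15 sucrose synthase and the 13 phosphofructokinase transcripts, each with its mean CPM in brackets. pp_144843 and pp_211717, drawn as diamonds, lie lowest at -1.05 and -1.03, and the 3 sucrose synthase transcripts to the right of 0 are pp_211898, pp_211901 and pp_211903.

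The steps around the 2 enzymes give the setting. Of 56 listed transcripts of sucrose hydrolysis, hexose phosphorylation and the rest of glycolysis, 50 were measured, 25 with a log2 fold change above 0 and 25 below, and their median was -0.01. Some of the 50 carry the same unigene with nearly the same reads, such as pp_107762 and pp_107763, and may not be separate measurements. Limma, the exact test, the quasi-likelihood test and DESeq2 each called 0 of the 50, and at an unadjusted p under 0.05 there were 8 higher and 2 lower, where this held for 4.1% and 4.58% of all transcripts. Of these, 4 of the 8 and 1 of the 2 were named only in the table sorted by response. Beside sucrose synthase, the invertase transcript pp_95531 had 5.84, 5.54 and 5.70 CPM in N1, N2 and N3, against 1.53, 3.27 and 2.87 CPM in C1, C2 and C3 (0.95 ± 0.27, SE, limma adjusted p = 0.313). pp_95526, another invertase, had a log2 fold change of 0.58 ± 0.18. Both were named only in the table sorted by response, and pp_109064, the invertase named elsewhere, was at 0.02 ± 0.15. Those which take up the products of sucrose synthase were pp_107765 (-0.16 ± 0.14) and pp_107762 (-0.11 ± 0.12) for UDP-glucose pyrophosphorylase and pp_186077 (0.45 ± 0.20) and pp_133125 (0.24 ± 0.16) for fructokinase. Hexokinase, which phosphorylates glucose, was at 0.46 ± 0.18 in pp_112410 and -0.17 ± 0.15 in pp_241577.

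For the step directly after phosphofructokinase, the aldolase transcripts pp_139787 and pp_139789, which carry the same unigene, had log2 fold changes of 0.45 ± 0.12 and 0.43 ± 0.12 (limma adjusted p = 0.260 and 0.277). Both match fructose-bisphosphate aldolase 2 of Arabidopsis, and whether they act in the same cell compartment as pp_211717 was not tested. pp_139789 was named only in the table sorted by response. pp_139787 had 78.6, 98.7 and 86.8 CPM in N1, N2 and N3, against 60.6, 65.3 and 65.4 CPM in C1, C2 and C3. Its group values did not overlap and lay in the opposite order to those of pp_211717. Separation in this direction was found for 7.16% of all transcripts. The remaining measured aldolase transcript, pp_198196, carries another unigene and was at 0.0014 ± 0.26, with overlapping values. Further down, glyceraldehyde-3-phosphate dehydrogenase pp_147404 was at -0.38 ± 0.17. The phosphoglycerate kinase transcripts pp_61984 and pp_152664 were at 0.36 ± 0.13 and -0.38 ± 0.20, with 5 of the 8 measured above 0 and 3 below. Of those above 0, pp_61982, pp_61985 and pp_61988 carry the same unigene as pp_61984, and had nearly the same reads as each other in every library. Enolase pp_249796 ranged widely within each group, with 14.3, 143 and 77.0 CPM in N1, N2 and N3 against 305, 228 and 74.6 CPM in C1, C2 and C3. The 10 pyruvate kinase transcripts were split, 5 above 0 and 5 below, but pp_237320 and pp_237321, both below, also shared a unigene and nearly the same reads. pp_212346, with the smallest p of the 10, was at 0.44 ± 0.21 (0.73 without C1 and N1), and was not called. pp_212353 (-0.78 ± 0.43) was called lower, of the settings tried, only without C1 and N1 (-1.60, limma adjusted p = 0.0383).

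**Figure D4:**
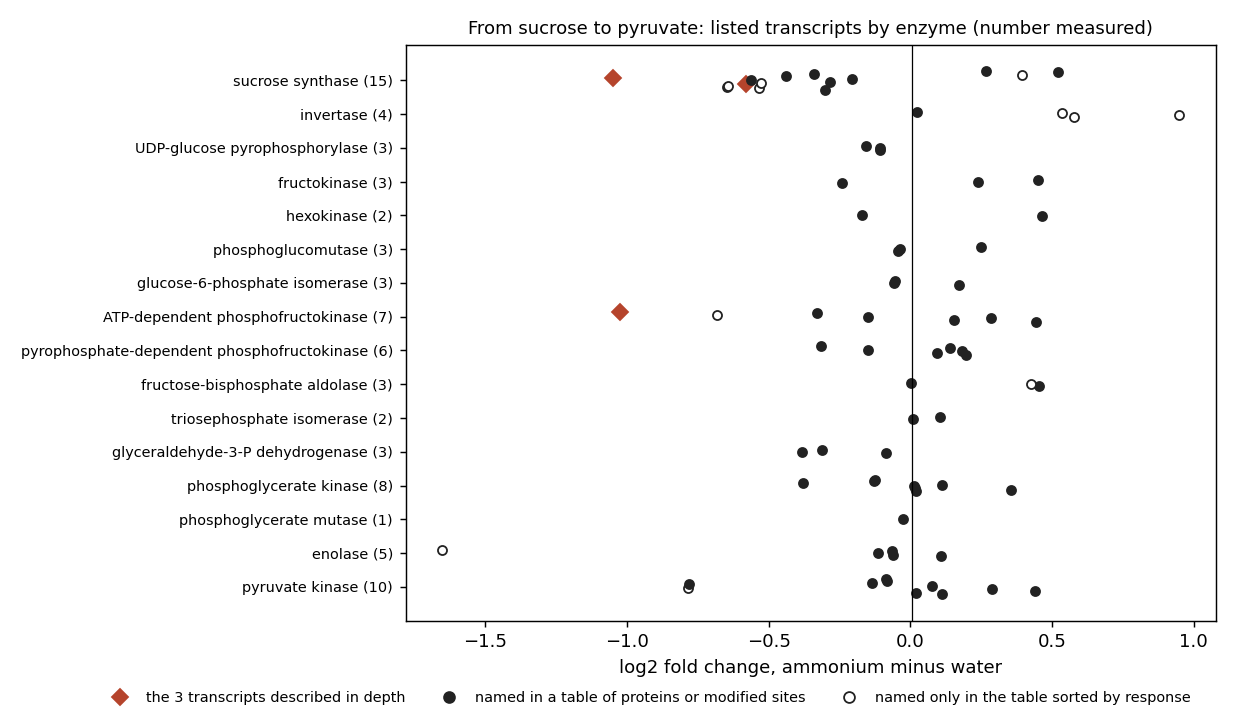
Log2 fold change, ammonium minus water, of every measured listed transcript by enzyme, from sucrose cleavage at the top to pyruvate kinase at the bottom, with a vertical line at the median of all transcripts. Open circles mark names found only in the table sorted by response. The 2 diamonds of sucrose synthase and that of phosphofructokinase lie left of 0, and the aldolase and invertase transcripts lie at or right of it.

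Transcripts whose pattern over the 6 libraries was most like each of the 3 were sought among 28559 with a mean of at least 5 CPM and at least 1 read in every library, by Pearson's r of log2(CPM + 1). For pp_144835 the first was pp_144839 (r = 0.996), the form with the same unigene. Named transcripts next to it were pp_203407, an RNA-binding protein with RRM motifs (r = 0.992), and pp_91963, a CBL-interacting protein kinase (r = 0.991), and the other 2 of its 5 closest had no name. For pp_144843 the only named transcript among the 5 closest was pp_236245, an AT-hook nuclear protein (r = 0.991). For pp_211717 it was pp_92124, a defensin (r = 0.989), with 58.4 ± 7.97 CPM under ammonium and 87.9 ± 6.49 CPM under water (SD, n = 3 each). Values of r this high are picked from many candidates over 6 libraries, and they are given as a description.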

How the data were processed

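Samples were grouped from their titles. Bases were called with Guppy, reads were filtered by quality and aligned with minimap2 to the root transcriptome, and the authors deposited CPM values made with edgeR for transcripts that reached 2 CPM in 2 or more libraries. The sources used here give neither their versions nor the program that counted reads. Every value was, within 1e-06, a whole number of times the CPM of a single read, so reads were recovered for count tests.

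Here log2(CPM + 1) was fitted with limma 3.58.1 (trended eBayes, R 4.3.3) on all 6 libraries, with Benjamini-Hochberg adjustment over 46658 transcripts and a threshold of 0.05. Alternatives were edgeR 4.0.16 (exact and quasi-likelihood), DESeq2 1.42.0, a pseudocount of 0.25 or 4 CPM, a filter of 10 CPM in 3 libraries, TMM factors, untrended eBayes, blocking on the replicate number, and leaving out libraries. P-values set the difference between the groups against the spread between these libraries, as estimated with information from all transcripts. The 3 transcripts and the lists were chosen with earlier results of these data known. Named were the 3, every measured sucrose synthase and phosphofructokinase transcript, the 2 with the smallest limma p in each other list (of which the text gives most) and the 5 most alike per transcript. Added outside this rule, after their values were seen, were pp_109064, pp_198196 and transcripts named for sharing a unigene. Names came from the study's tables, whose values were not used. A further 3 transcripts described as sucrose synthase (pp_73505 to pp_73507) were left out because their Arabidopsis match was a zinc finger protein. The scripts were tested on simulated data.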

Additional observations from a re-analysis of the deposited data

How the results depend on the processing

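The 3 transcripts kept a negative log2 fold change under every alternative that gave them a value, -0.71 to -0.44 for pp_144835, -1.27 to -0.74 for pp_144843 and -1.20 to -0.66 for pp_211717. Every ammonium value of the 3 lay below every water value, so no pseudocount or left-out library could turn that sign. Nothing is read from the sign being kept. The values nearest 0 of the 2 low transcripts were those with a pseudocount of 4 CPM (-0.74 and -0.66). The filter of at least 10 CPM in 3 libraries left only pp_144835. Leaving out 1 library gave -0.71 to -0.44 for pp_144835, -1.19 to -0.91 for pp_144843, -1.20 to -0.81 for pp_211717 and -0.60 to -0.37 for the shift between the rare and the abundant form, which was -0.17 with a pseudocount of 4 CPM. Over all transcripts limma called 18, and 0 by eBayes without a trend, 378 by edgeR's exact test, 114 by its quasi-likelihood test, 83 by DESeq2, 352 without C1 and N1 and 0 (without C2) to 71 (without N1) with 1 library left out, 5 without N2, 5 without N3 and 29 without C1. The causes were not tested. Sucrose synthase forms called were 1 by the exact test and 2 without C1 and N1, and 1 transcript of the other steps was called without C1 and N1. Of 786 fits of 50 named transcripts, 19 turned the sign, in 11 transcripts. With 1 library left out these ran from -0.87 to 0.14 for pp_147674, -0.26 to 0.025 for pp_107765, -0.18 to 0.0033 for pp_107762, -0.16 to 0.016 for pp_94703, -0.10 to 0.011 for pp_172986, -0.27 to 0.017 for pp_144272, -0.52 to 0.16 for pp_196481, -0.032 to 0.077 for pp_145084, -0.10 to 0.0090 for pp_78715 and -0.19 to 0.0063 for pp_214935. Without C1 and N1, pp_107765 was at 0.034 and pp_94589 at -0.0017.

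Correlations showed no clear pairing of the libraries by replicate number, but with 3 libraries per group they cannot exclude it. Deviations from the group means correlated at r = -0.0024 for N1 with C1, 0.056 for N2 with C2 and -0.0086 for N3 with C3, and only N2 correlated best with its own number. With the replicate number as a block limma called 49 transcripts, against 18 without it, and 0 of the sucrose synthase, phosphofructokinase and other listed transcripts. Depth limits the rare form and pp_211717 most, above all in C1, where 1 read is worth 0.767 CPM.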

Other observations

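Some sucrose synthase and phosphofructokinase forms were spread widely between the 3 ammonium libraries, and N1 was the one that differed. These were picked after their values were seen. Sucrose synthase pp_144837 had 75.7 CPM in N1, but 35.0 and 34.8 CPM in N2 and N3, against 67.5, 51.8 and 48.1 CPM in C1, C2 and C3. The pyrophosphate-dependent phosphofructokinase pp_196481 had 48.4 CPM in N1, but 18.1 and 26.4 CPM in N2 and N3, against 35.3, 26.8 and 34.0 CPM in C1, C2 and C3.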
